A study of Mus musculus with 2 samples.

Results

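The interferon regulatory factors (IRFs) form a small family of transcription factors, and 8 of them were examined here: Irf1, Irf2, Irf3, Irf4, Irf5, Irf7, Irf8 and Irf9. Members were taken by name, as every non-control probe whose RefSeq accession belongs to one of these genes, which gave 9 probes of 55669 and 8 genes of 20659. No expression value entered the rule, but the family itself was selected on the contrast of these 2 arrays, with the log2 difference of Irf7 already known, so all values of its members are a description. RNA of mouse retina at postnatal day 14 was hybridised to one-colour Agilent arrays, 1 array for wild-type (WT) retina and 1 for retina labelled Mef2d KO. The Mef2d gene codes for a MEF2 transcription factor, a class known from muscle and neurons. The labels give no strain, allele, sex or number of animals for either group, and no agent was named. Each group is a single array, so nothing here was replicated or tested and no p-value was computed.

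IRF proteins share an amino-terminal DNA-binding domain that reads the interferon-stimulated response element (ISRE). Irf3 and Irf7 lie dormant in the cytoplasm until kinases below sensors of viral nucleic acid phosphorylate them, after which they switch on interferon genes, and Irf5 acts below Toll-like receptors. Irf9 is the DNA-binding part of the complex that carries the interferon signal to the nucleus. Irf1 is an activator and Irf2 largely its antagonist at shared sites. Irf4 and Irf8 act mainly in blood cells, and Irf8 is needed for microglia, the resident macrophages of the retina.

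The start regions of these genes are shown because the results turn on a family in which some genes are themselves induced by interferon. Sequences are those of RefSeq on GRCm38.p6, read 5′ to 3′ on the strand of the gene and limited to bases outside annotated genes. Capitals mark matches to the gamma-activated site (GAS, TTCNNNGAA). The Irf7 stretch is chr7:141266500-141266674 on the minus strand, that of Irf1 is chr11:53769764-53770013 on the plus strand and that of Irf8 is chr8:120736108-120736357 on the plus strand.
Irf7: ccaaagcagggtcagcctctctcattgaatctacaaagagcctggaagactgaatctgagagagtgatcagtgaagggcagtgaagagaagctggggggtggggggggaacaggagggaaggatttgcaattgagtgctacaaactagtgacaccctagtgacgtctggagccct
Irf1: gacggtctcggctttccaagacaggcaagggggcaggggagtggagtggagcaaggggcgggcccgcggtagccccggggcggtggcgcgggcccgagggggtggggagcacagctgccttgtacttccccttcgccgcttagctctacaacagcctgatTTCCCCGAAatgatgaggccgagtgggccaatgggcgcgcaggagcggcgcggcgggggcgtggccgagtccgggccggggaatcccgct
Irf8: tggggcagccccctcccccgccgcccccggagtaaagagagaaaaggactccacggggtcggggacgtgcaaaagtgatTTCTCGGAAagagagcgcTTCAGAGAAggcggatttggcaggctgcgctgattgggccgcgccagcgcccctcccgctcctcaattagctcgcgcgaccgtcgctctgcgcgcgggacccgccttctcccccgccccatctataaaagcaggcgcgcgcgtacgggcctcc

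The 3 motifs ISRE, GAS and MEF2 were searched on both strands of windows of 300 bases around gene starts. The ISRE core, searched as 2 copies of GAAA with 2 bases of any kind between them, was found in 17 of 41 windows of interferon-stimulated genes (41.5%) and in 1131 of all 32851 windows (3.44%). Among the 11 windows of the 8 IRF genes it occurred in 1, that of Irf2. A GAS match was found in the windows of Irf1, Irf2 and Irf8, 3 of 11, against 8.30% of all windows, and the Irf8 window held 2. The Irf7 window held neither, and the MEF2 consensus was found in none of the 11 windows, against 3.19% of all. An absent match says only that these letters are not in this window.

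Irf7 stood apart from the rest of the family. Its processed signal was 194.5 in WT and 39.1 on the array labelled Mef2d KO (called the KO-labelled array from here on), both well above background by the scanner software's own call. In levels, meaning log2 of the signal relative to the 75th percentile of each array, these were -2.05 and -4.46. The Irf7 signal was thus 5.28-fold lower on the KO-labelled array, a log2 difference of -2.40 ± 0.24, where ± is the error of the scanner software's model for a difference between 2 spots and leaves out variation between animals. Irf7 was the only member at least 2-fold lower, and no member was at least 2-fold higher, among the 7 members well above background on both arrays. Among the 16190 named genes read on both, the share past 2-fold was 1.74% downward and 0.618% upward, 2.35% in all. Irf7 ranked 31st from the lowest difference among those genes.

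**Figure D1:**
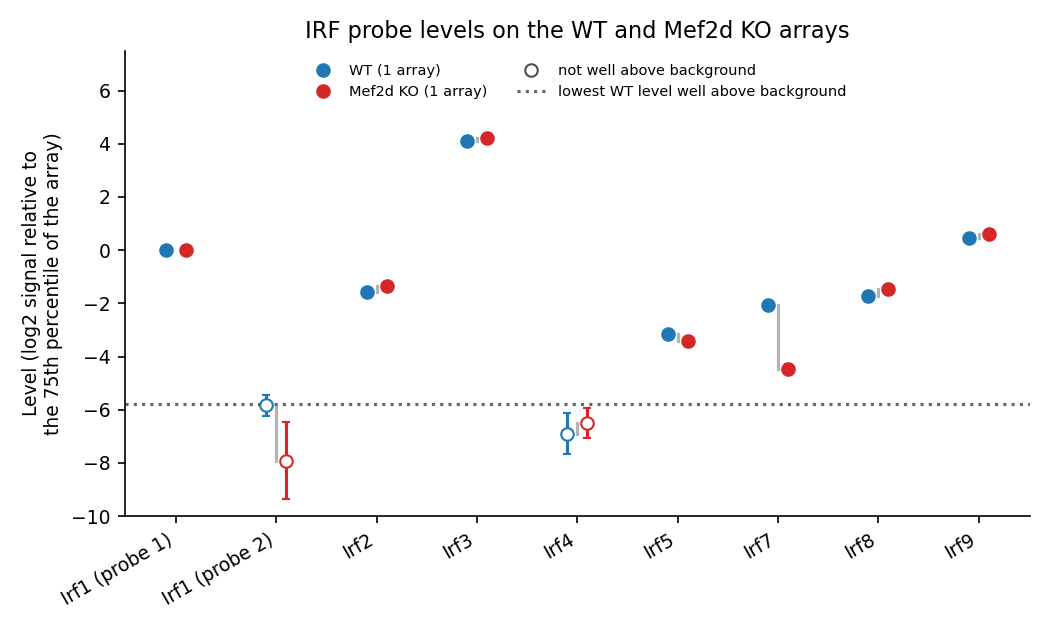
Levels of the 9 IRF probes (y axis, log2 of the signal relative to the 75th percentile of each array) on the WT array (blue) and the array labelled Mef2d KO (red), with scanner error bars; open points were not well above background. Irf7 went from -2.05 to -4.46, while the pairs of the 6 other members above background lie close together.

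The size of the Irf7 difference rested on how dim signals were treated, since its level on the KO-labelled array was low. The probes of spiked-in control RNA gave a median difference of -0.033 (SD 0.090 over spots) at a WT level of -1.80, near that of Irf7 in WT. The spike-in nearest to the level of Irf7 on the KO-labelled array, at -4.90 there, gave -0.74 (SD 0.25). With levels of the KO-labelled array read against the curve of 8 spike-ins, an alternative chosen after seeing the data, the Irf7 difference was -1.83, and 0.815% of all genes were at least 2-fold lower. With normexp background correction, which adds an offset of 50 and pulls dim signals together, it was -1.45. Among the 657 genes whose mean level lay within 0.25 of that of Irf7, 5 had a difference as low as that of Irf7 or lower, itself included, and the middle 95% ran from -1.05 to 0.59. Of all genes at a mean level of -3 or below, 5.34% were at least 2-fold lower. Irf7 had a single named probe, so no second probe bears on its value.

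**Figure D2:**
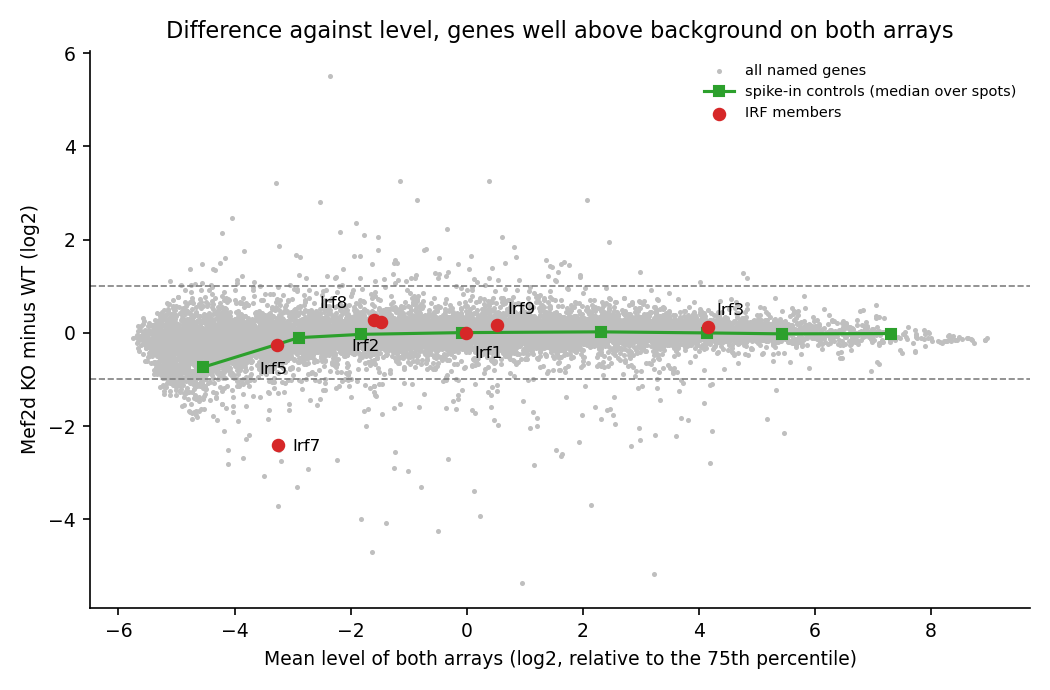
Difference between arrays (y axis, Mef2d KO minus WT, log2) against the mean level (x axis, log2) for all 16190 named genes (grey), the spike-in controls well above background (green) and the 7 IRF members read on both arrays (red); dashed lines mark 2-fold. Irf7 lies at -2.40, below the -0.74 of the dimmest spike-in drawn.

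The partners of Irf7 in the induction of interferon genes were near level between the arrays. Irf3, the IRF kept in most cell types and activated by the same kinases as Irf7, had a signal of 13920 in WT and 16010 on the KO-labelled array. Its difference was 0.11 ± 0.20, and 0.29 with median scaling, which moved the median of all genes to 0.17. Irf5, which acts below Toll-like receptors in macrophages and dendritic cells, was dim, with signals of 91.1 and 81.1. Its difference of -0.26 ± 0.22 became -0.010 on the spike-in curve. In the main setting Irf3 and Irf5 were within 1.2 times the scanner error of no difference, while Irf7 was 10.2 times that error away.

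Irf9, which works with Stat2 in the interferon signal complex, had signals of 1098 in WT and 1317 on the KO-labelled array. The Irf9 difference was 0.17 ± 0.20. Irf1, itself a classic interferon-gamma target, was represented by 2 probes. The brighter one gave signals of 802 and 852, a difference of -0.00062 ± 0.20 that turned to 0.18 with median scaling. The other, matched to a different Irf1 transcript, was not well above background on either array, at signals of 14.2 and 3.55. Irf2, its antagonist at many sites, had signals of 268.3 and 334.1 and a difference of 0.23 ± 0.21.

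Irf8 and Irf4 were the members tied most closely to blood-derived cells. Irf8 had signals of 243 in WT and 310.5 on the KO-labelled array, a difference of 0.27 ± 0.21, the highest in the family. Irf4, a factor of lymphocytes and plasma cells, was not well above background on either array, with signals of 6.76 and 9.46, and gave no fold. Most microglia and macrophage markers, though not all, had values of the same sign as Irf8. Of 17 listed markers, 16 had a named probe, all well above background on both arrays, and 12 had a positive difference and the median was 0.21, with C1qa at 0.54, Aif1 at 0.54 and C1qc at 0.42. The 4 negative ones were P2ry12 (-0.21), Ptprc (-0.20), Fcrls (-0.19) and Siglech (-0.16). Their summed level, in units of the 75th percentile, was 189.5 in WT and 177.4 on the KO-labelled array, and 38.0 and 41.8 without Siglech, whose brighter probe made up most of the sum and whose other probe had a difference of 0.38. Whether the share of microglia bears on the Irf8 value was not tested. In whole retina, fewer cells of a type and less RNA per cell cannot be told apart.

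Across the 6 members other than Irf7 that were read on both arrays, differences ran from -0.26 to 0.27, and none exceeded 1.30 times its scanner error. Their median was 0.14, against -0.0060 over all named genes, and 0.32 against 0.17 with median scaling. Irf2, Irf3, Irf8 and Irf9 had positive differences in the main setting and in each alternative that gave a value. Irf5 had a negative difference in each of these. All settings rescale the same 2 arrays, so their signs are not independent of one another. Of all 16190 named genes read on both arrays, 7894 had a positive difference in the main setting. With median scaling, 3656 of the 16190 had a negative difference.

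**Figure D3:**
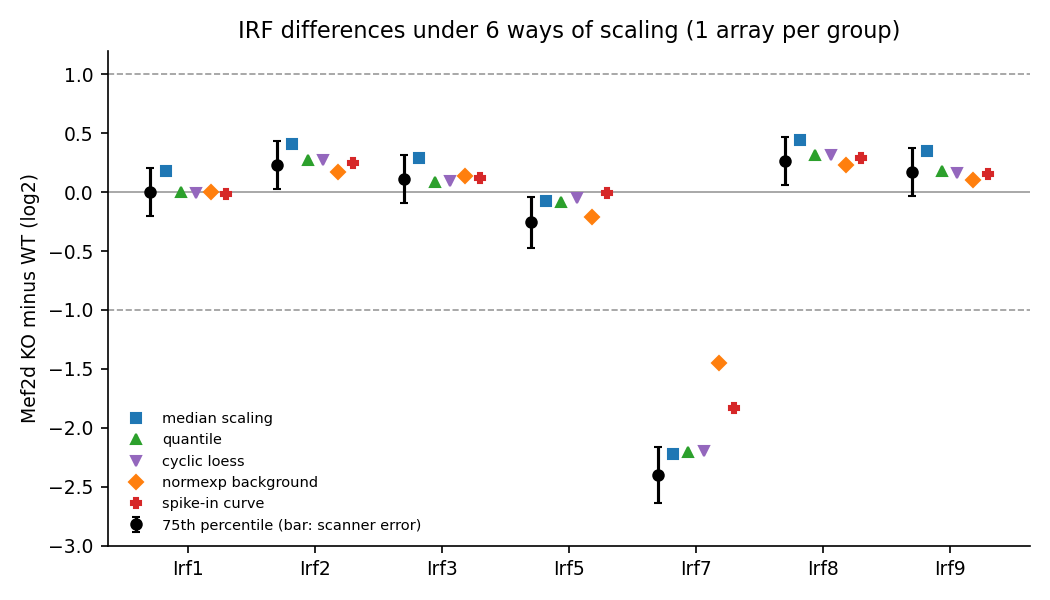
Difference between arrays (y axis, Mef2d KO minus WT, log2) for the 7 IRF members read on both arrays under 6 ways of scaling; black bars are scanner errors and dashed lines mark 2-fold. Irf7 lies between -2.40 and -1.45 and the other 6 members stay within 2-fold.

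Interferon genes themselves, the targets of Irf3 and Irf7, were dim. Of 18 listed ligand genes, 15 had a named probe and 11 were well above background on both arrays. None of the 11 was 2-fold apart and 10 had a negative difference, against 8296 of all 16190 named genes read on both arrays. The lowest were Ifna11 (-0.97), Ifnk (-0.85), Ifna2 (-0.43) and Ifna5 (-0.36). The list median of -0.15 became 0.026 with median scaling and 0.15 on the spike-in curve. Ifnb1, the first interferon induced by Irf3, and Ifng were not well above background on either array. The type I interferon genes are near-identical copies, so their probes may read one another.

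Genes that receive the interferon signal were close to level. All 14 listed receptor and JAK-STAT genes were read on both arrays and none was 2-fold apart, with a median of 0.089. The receptor chains Ifnar1 and Ifnar2 differed by 0.28 and 0.15. Stat2, the partner of Irf9, differed by 0.42. Ifnlr1, a receptor chain for lambda interferons, differed by 0.49 and Socs3, an inhibitor of the pathway, by -0.35. Ifnlr1 was dim and stood at 1.11 on the spike-in curve and at 0.090 with normexp background.

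Sensors and kinases upstream of the IRFs followed the same pattern. Of 26 listed genes, 24 were read on both arrays, none 2-fold apart, with a median of -0.017 (0.16 with median scaling). Among them the RNA sensors Tlr3 and Ddx58 differed by -0.76 and 0.45 and the DNA sensor Cgas by -0.49. The nucleic acid sensor Zbp1 differed by 0.71 by its brighter probe and by -0.89 by the other. Cgas had 3 probes, with differences from -0.49 to 0.20. The differences of Tlr3 and Cgas shrank to -0.054 and -0.18 on the spike-in curve.

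Interferon-stimulated genes did not show a difference of the size seen in Irf7. Of 43 listed genes, 37 were read on both arrays and none was 2-fold apart. Their median was 0.092, with 22 positive and 15 negative differences. With median scaling the median was 0.27 and 4 were negative, against a median of 0.17 and 3656 negative among all 16190 named genes. Isg15, a ubiquitin-like modifier, differed by 0.15, and its other probe by -0.49. Usp18, the protease that removes it, differed by 0.30. Rsad2 (0.59) and Oasl2 (0.50) had the largest positive differences, and Ifi44 (-0.57) and Ifi47 (-0.57) the largest negative ones. Rsad2 stood at 1.12 on the spike-in curve and at 0.015 with normexp background, and Ifi44 at 0.0026 on the spike-in curve. Ifit1 and Cxcl10 were well above background on the KO-labelled array only. The bound used for genes read on 1 array only put them 1.34-fold and 1.48-fold higher there. In log2 these bounds are 0.42 and 0.57, near the scanner errors of 0.49 and 0.55. Their normexp differences were -0.050 and 0.20. Genes read on both arrays were also compared by the ISRE core where they had a start window among those searched. The 455 with the core had 1.54% past 2-fold downward and 0.879% upward, against 1.71% and 0.606% of the 12379 without it.

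Among genes of antigen presentation, which Irf1 and other IRFs help to switch on, 2 of the 16 read on both were past 2-fold upward and none downward. Cd74, whose product guides MHC class II assembly, differed by 1.77 ± 0.21. The listed MHC class II genes, named here after their values were seen, did not show a difference of this size. H2-Ab1 differed by 0.18, H2-Eb1 by -0.11 and H2-DMa by -0.015, and H2-Aa was not well above background on either array. Nlrc5, the activator of MHC class I genes, was dim and differed by 1.03 ± 0.37, or 0.23 with normexp background. Ciita, the activator of MHC class II genes, differed by -0.97 ± 0.30, and by -0.26 on the spike-in curve. The class I heavy chains H2-K1 and H2-D1 both differed by 0.47, and the trimming peptidase Erap1 by -0.27. The list median was 0.049.

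Of 22 listed IRF partners and regulators, 19 were read on both arrays and 1, Tnfaip3, was at least 2-fold lower. Tnfaip3 encodes A20, a ubiquitin-editing brake on NF-kB and on signalling towards IRFs. Its level was 3.98 in WT and 1.94 on the KO-labelled array, a difference of -2.03 ± 0.20 that was -2.00 with normexp background and -2.06 on the spike-in curve. Prdm1, a repressor with sites that overlap those of IRFs, differed by 0.78 and the dendritic cell factor Batf3 by 0.75. Ets1 differed by -0.46 and Batf by -0.40. Batf3 and Batf were dim. Batf3 stood at 0.11 with normexp background and at 1.29 on the spike-in curve. Batf stood at -0.19 with normexp background and at 0.31 on the spike-in curve. The list median was -0.053. Spi1 and Spib, the DNA-binding partners of Irf4 and Irf8, were not well above background on either array, and Ikzf1 was so only in WT.

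**Figure D4:**
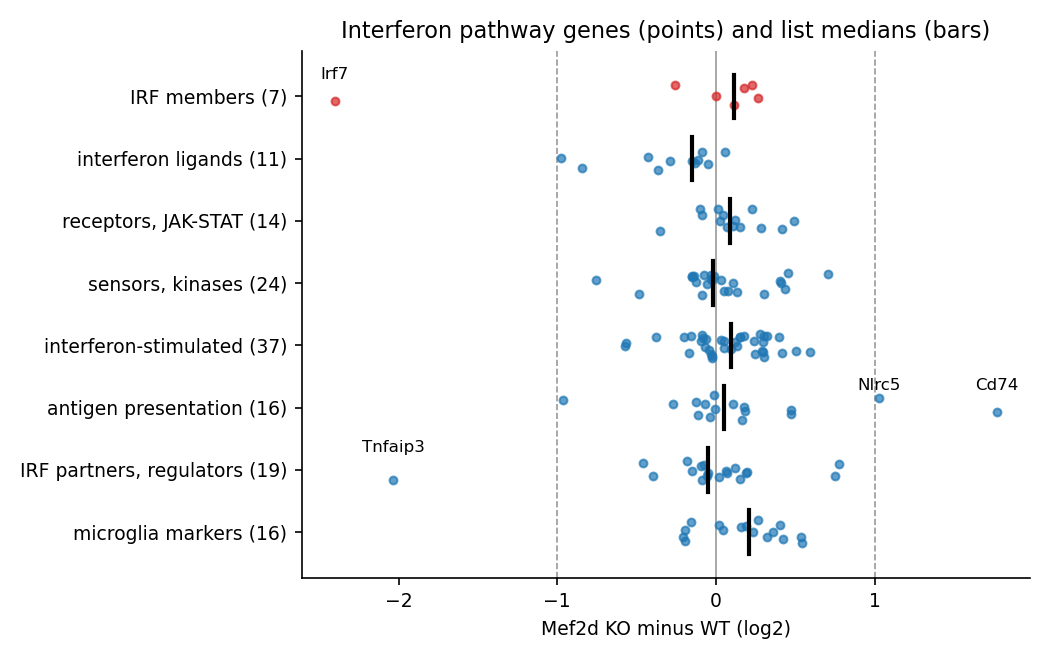
Differences (x axis, Mef2d KO minus WT, log2) of the IRF members, 6 lists of interferon pathway genes and the microglia markers, each point a gene well above background on both arrays, with list medians as black bars, list sizes in parentheses and dashed lines at 2-fold. Irf7, Tnfaip3, Nlrc5 and Cd74 lie beyond the 2-fold lines.

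Markers of other immune cells that use IRFs were mostly dim. Of 8 B cell markers, 6 were read on both arrays with a median of -0.31, which became 0.078 on the spike-in curve. Cr2, a complement receptor, was the one gene of that list past 2-fold upward, with a log2 difference of 2.06, and Cd79a and Cd79b differed by -0.73 and -0.50. Ms4a1 and Pax5 were not well above background on either array. Of 7 T cell markers 4 and of 6 dendritic cell markers 2 were read on both arrays, none 2-fold apart. Cd8a, a T cell co-receptor chain, came closest at 0.92 by its brighter probe and 0.55 by the other. The brighter probe was dim and stood at 0.41 with normexp background. It passed 2-fold with median scaling, on the spike-in curve (1.11), with quantile normalization (1.15) and with cyclic loess (1.18). The part of these cells in the IRF values was not tested.

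In the main setting, 2 of 7 measured genes after Irf7 on chromosome 7 were at least 2-fold lower, and none of 6 before it. Over all named genes read on both arrays the share was 1.74%, and 5.34% among those at a mean level of -3 or below. The order of genes was taken from the GRCm38.p6 annotation, within 100 kb of Irf7. The 6 measured genes before it ran from -0.14 to 0.087, with the adjacent Phrf1 at 0.087. After it, the adjacent Cdhr5 differed by -0.65 ± 0.28 and Sct, the gene of the hormone secretin, by -0.92 ± 0.20. Drd4, a dopamine receptor gene of photoreceptors, had levels of 6.10 (WT) and 4.25 (KO-labelled), a difference of -1.86 ± 0.20 that was -1.83 with normexp background. Eps8l2 was dim and differed by -1.22 ± 0.26, or -0.60 on the spike-in curve, and Cdhr5 stood at 0.050 there. The dim B230206H07Rik, on the same side, differed by -0.58 ± 0.35, or 0.13 on the spike-in curve. Deaf1 and Tmem80, which lie between Drd4 and Eps8l2, differed by -0.064 and -0.039. Of the 281 genes at least 2-fold lower, 39 had another such gene within 100 kb, and 8 had at least 2. These 8 were Irf7, Drd4, Eps8l2 and 5 kallikrein genes of the Klk1b cluster, whose probes were not checked for reading one another. The matching shares over all genes were not computed, and these counts are of the main setting. Eps8l2 was within 2-fold with quantile normalization (-0.95), cyclic loess (-0.90), normexp background (-0.62) and on the spike-in curve. Drd4 and the genes further from Irf7 were named after their values were seen.

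**Figure D5:**
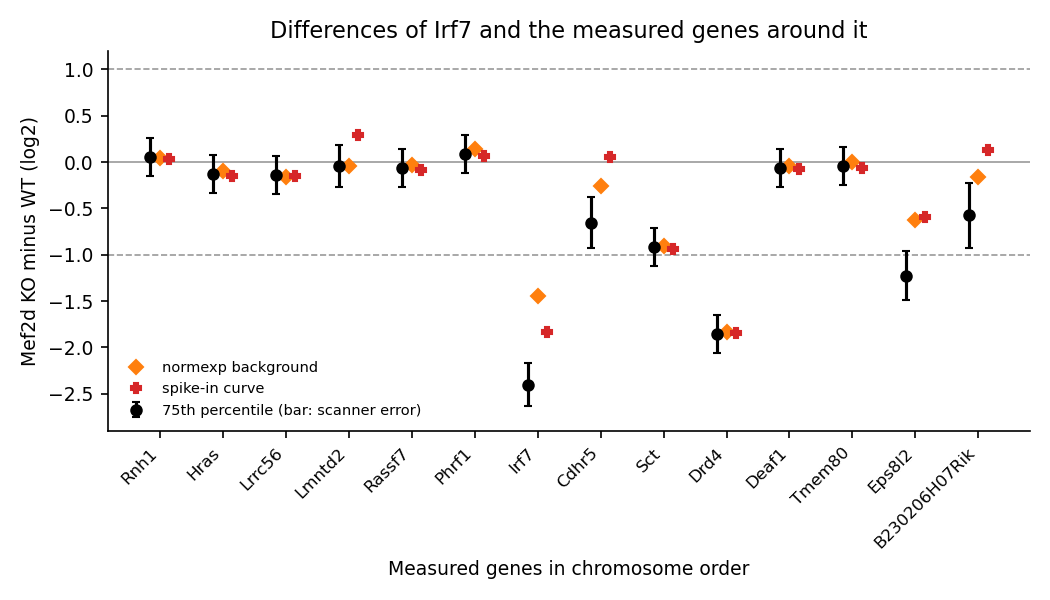
Differences (y axis, Mef2d KO minus WT, log2) of Irf7 and the 13 measured genes around it in chromosome order (x axis), with scanner error bars; dashed lines mark 2-fold. Irf7, Drd4 and Eps8l2 lie below -1 in the main setting, and Irf7 and Drd4 in all 3 settings drawn.

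The genes nearest to Irf7 in their pair of levels, by Euclidean distance over the 2 arrays, were Acoxl, Ccl9 and Myom1. Acoxl lay at a distance of 0.091, with a difference of -2.52 ± 0.24. Ccl9, a chemokine gene of macrophages, lay at 0.26 with a difference of -2.76 ± 0.24. Myom1, a gene of the sarcomere, lay at 0.45 with a difference of -1.85 ± 0.23. With normexp background these were -1.48, -1.64 and -1.03. Likeness over 2 samples is a description of these arrays.

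Checks of the labels bear on every direction above. Mef2d was not lower on the KO-labelled array, with differences of 0.43 and 0.14 by its 2 probes, and the deleted part of the gene, and hence what these probes can check, is not known here. Xist, the RNA of the inactive X chromosome, was well above background on the KO-labelled array only, at least 51.9-fold higher there by its bound. The Y-linked Eif2s3y, Ddx3y, Uty and Kdm5d were well above background on both arrays and differed by -0.36 to -0.76. The lowest of these, the dim Kdm5d, stood at -0.053 on the spike-in curve. Sex composition and genotype therefore cannot be told apart in these 2 arrays, for Irf7 as for other genes. Both arrays came from the same scan, and 75.5% of WT spots and 69.6% of KO-labelled spots were well above background. All 8 listed retinal markers (Nrl, Crx, Sag, Gnat1, Pde6b, Grm6, Rlbp1 and Glul) were well above background on both arrays, and their differences ran from -0.82 for Sag, the rod arrestin, to 0.38 for Pde6b, a rod phosphodiesterase subunit.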

How the data were processed

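The labels' protocols describe forceps dissection of mouse retina, QIAzol RNA and Cy3 labelling for one-colour Agilent arrays. Per the file headers, Agilent Feature Extraction 10.10.1.1 turned the authors' scans into intensity values, with background subtraction and detrending inside each array. In the deposited series table these intensities are multiplied by 1.88 (WT) and 1.76 (Mef2d KO), linear and uncentred, with column medians of 155.1 and 136.6. The basis of these constants is unknown here.

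Levels were log2 of the processed signal minus the 75th percentile of each array (807.5 and 857.9). Control spots and outlier spots (106 and 126) were left out and spots of a probe averaged. RefSeq accessions without version were matched to GRCm38.p6 symbols, which named 48.9% of 55669 probes. The array design is of build mm9, so no gene position was printed from that annotation. A gene took its brightest probe well above background on both arrays. A gene read on 1 array only got a bound, the bright level against whichever is higher on the other array, the probe's own level or the lowest level well above background.

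The members and gene lists were chosen with earlier results of these data known. Named genes were the members, up to 4 further genes of each list by size of difference besides those past 2-fold, fixed signalling genes, label checks, neighbours of Irf7 and its 3 nearest genes by level, with exceptions named in the text; some genes are not reported here. Precision is limited by the number of arrays. The code of the calling rule was run on simulated differences, with noise from the WT scanner error alone. That run held no variation between animals and no offset of dim signals, so no call rests on it. Tools were R 4.3.3, limma 3.58.1, Python 3.11.15, numpy 2.4.6, pandas 2.3.3 and matplotlib 3.10.9. The alternatives are given in the closing section.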

Additional observations from a re-analysis of the deposited data

How the results depend on the processing

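No paired analysis was possible because each group has 1 array and no test was run. The settings tried were a median in place of the 75th percentile, that percentile over probes read on both arrays, quantile and cyclic loess normalization, normexp background, the series table, the mean over probes, no filter on dim probes, a mean level above -3, a 1.5-fold threshold and the spike-in curve, the last chosen after seeing the data. The Irf7 difference was -1.45 with normexp background and -1.83 on the spike-in curve, and within its scanner error of -2.40 in the other settings that gave it a value; it has none where a mean level above -3 was required. The count of members at least 2-fold lower was 0 among genes with a mean level above -3, and 1 otherwise. The count of pathway genes 2-fold apart was 3, falling to 2 with normexp background and to 2 above a mean level of -3, and was 6 with quantile normalization, 6 with cyclic loess, 6 with no filter on dim probes and 8 on the spike-in curve; Zbp1, Rsad2 and Batf3 were added by the first pair and by the curve, and Ifnlr1 and Irak4 by the curve alone. Over all genes, 73.8% of those 2-fold apart were lower, against 50.8% after quantile normalization, 50.9% after cyclic loess, 53.0% with median scaling, 62.8% under normexp background, 88.5% with no filter on dim probes, 60.3% above a mean level of -3 and 40.6% on the spike-in curve. Low signal over background limits Irf7 on the KO-labelled array, Irf4, Irf5 and the interferon ligands.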

Other observations

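Genes with the MEF2 consensus in a start window of 300 bases had a larger share of lower values than those without it. Of 292 such genes read on both arrays, 12 (4.11%) were past 2-fold downward and 2 (0.685%) upward. For the 12542 genes read on both that had a searched window without the consensus, these shares were 1.65% and 0.614%. The median difference was -0.052 with the consensus, against -0.0043 without it. This comparison was made after the motif was searched in the IRF windows and was not tested. It was made in the main setting only, and genes were not matched by level. Among all genes at a mean level of -3 or below, 5.34% were at least 2-fold lower, so the shares depend on level. For GAS, 1.46% of 1098 genes with a match were at least 2-fold lower, against 1.73% of 11736 with a searched window but no match.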
